A study of Mus musculus with 6 samples.

Results

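Dense clusters of Nanog binding were examined in mouse embryonic stem cells. Nanog peaks on chromosomes 1 to 19 were joined when the gap from the end of one peak to the start of the next was at most 12.5 kb, and runs of 3 or more peaks were called clusters. The rule found 1162 clusters with 4691 Nanog peaks, which were 27.9% of the 16833 Nanog peaks on these chromosomes. The other 12142 peaks lay outside clusters, 3654 of them in pairs and 8488 alone. Because the positions of Nanog peaks chose the members, numbers, spans and Nanog tags of the clusters are given as a description. The overlap with the other 4 factors was not used by the rule and is compared between clustered peaks and the rest.

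Nanog is a homeodomain transcription factor that, with Oct4 and Sox2, holds embryonic stem cells in the pluripotent state. In these cells such factors often bind several enhancer elements close together, and large groups of this kind near genes of cell identity are known as super-enhancers. Joining sites over a fixed distance is the first step by which such groups are usually found. Super-enhancers are defined with Mediator or histone marks, which were not measured here, so the groups are called clusters only. Tgif1 and its paralog Tgif2 are homeodomain repressors that bind Smad proteins and recruit histone deacetylases, of which Hdac1 is one. Smad3 is carried to the nucleus by TGF-beta, Nodal and Activin signals and binds chromatin beside cell-type-specific factors.

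The series held 6 samples, all of J1 embryonic stem cells that contain BirA, a bacterial enzyme which attaches biotin to tagged proteins. The cells were grown with serum and leukemia inhibitory factor. Chromatin was precipitated with streptavidin beads for Nanog and for Tgif2, and with antibodies for Tgif1, Hdac1 and Smad3. Each factor had 1 library and 1 deposited peak list, and the mock library of BirA cells was not analysed here. There was therefore no replicate check, and no overlap could be set against the mock library. On chromosomes 1 to 19 the lists held 16833 Nanog, 16273 Tgif1, 18976 Tgif2, 16398 Hdac1 and 1199 Smad3 peaks. Library depth is not known, since the files hold peaks only. Tags inside these peaks summed to 802659 for Nanog, 1084815 for Tgif1, 1338165 for Tgif2, 899871 for Hdac1 and 42445 for Smad3. All intervals are 95% intervals that treat peaks as independent and cover counting error only, and none was adjusted for the number of comparisons. Coordinates are those of build mm9, and neither gene names nor bases are printed for the clusters, as no reference of that build was used.

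Most clusters were short. Exactly 3 Nanog peaks made up 638 clusters (54.9%), 4 peaks made up 249 and 5 peaks made up 130, whereas 145 clusters held 6 or more. Only 30 held 10 or more peaks, up to 15. The median cluster spanned 12817.5 bp (25th to 75th percentile 7967 to 18583 bp), and the longest spanned 71921 bp. Together the clusters spanned 17.0 Mb, of which Nanog peaks covered 21.0%. Neighbouring peaks of a cluster were separated by a median gap of 2693 bp, and 1027 of the 3529 joining gaps (29.1%) were at most 1000 bp. When Nanog peaks within 1000 bp of each other were first merged, an alternative chosen after seeing the data, the rule gave 813 clusters.

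**Figure D1:**
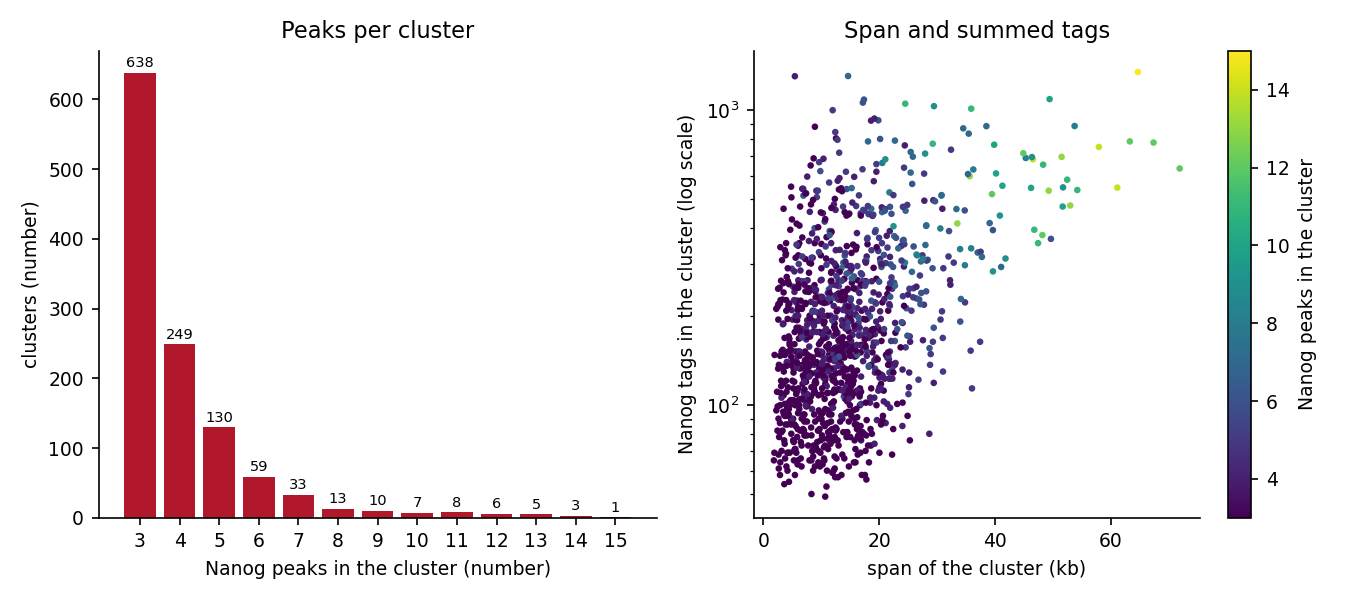
Left, number of clusters by the number of Nanog peaks they hold; right, summed Nanog tags (log scale) against span in kb, 1 point per cluster, coloured by the number of peaks. Clusters of 3 peaks were the most frequent with 638, and the cluster with 15 peaks also had the highest tag sum, 1346.

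Clustered peaks carried 266431 Nanog tags, or 33.2% of all tags on these chromosomes. The median peak held 33 tags in clusters (25th to 75th percentile 22 to 61) and 28 tags outside (20 to 47). Peak width showed the same order, with medians of 681 bp in clusters and 619 bp outside. Fold enrichment over background, the authors' value per peak, had the opposite order, with medians of 20.7 in clusters and 24.2 outside. Tags were spread unevenly within clusters. The strongest peak held a median of 48.0% of its cluster's tags, and more than 50% in 516 clusters. These leading peaks had a median of 84 tags, against 27 tags in the other members. Of the 1000 Nanog peaks with the most tags, 429 lay in clusters. The 116 clusters that form the top 10% by summed tags had at least 463 tags each and together held 28.8% of the tags of all members.

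All 4 other factors were found at a larger share of clustered than of other Nanog peaks, and the differences remained when peaks of similar Nanog tags were compared. Tgif1 peaks overlapped 2360 clustered Nanog peaks, or 50.3% (48.9 to 51.7), against 31.1% (30.3 to 31.9) of peaks outside and 36.5% of all Nanog peaks. Tgif2 overlapped 49.3% (47.9 to 50.8) in clusters and 32.9% (32.1 to 33.7) outside, with 37.5% over all Nanog peaks. Hdac1 overlapped 58.7% (57.3 to 60.1) in clusters and 42.0% (41.1 to 42.8) outside, with 46.6% over all. Smad3 overlapped 10.8% (9.97 to 11.8) in clusters and 4.78% (4.41 to 5.17) outside, with 6.46% over all. An overlap was at least 1 bp.

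Because stronger Nanog peaks overlap other factors more often, peaks were divided into 5 classes of Nanog tags with about equal numbers. Weighted to the tag classes of the members, the share outside clusters was 33.6% for Tgif1, 35.1% for Tgif2, 45.5% for Hdac1 and 6.39% for Smad3. The excess in clusters was then 16.7 percentage points for Tgif1, 14.3 for Tgif2, 13.3 for Hdac1 and 4.44 for Smad3. Expressed as a Mantel-Haenszel odds ratio over the 5 classes, it was 2.13 (1.98 to 2.28) for Tgif1. It was 1.87 (1.74 to 2.01) for Tgif2, 1.84 (1.71 to 1.98) for Hdac1 and 1.98 (1.73 to 2.27) for Smad3. With classes of Nanog fold in place of tags, the odds ratio of Smad3 was 3.21 (2.81 to 3.66). The weighted difference was positive on 19 of 19 chromosomes for each factor. Its lowest values were 10.8 points on chromosome 7 for Tgif1, 8.37 points on chromosome 7 for Tgif2, 3.22 points on chromosome 17 for Hdac1 and 0.402 points on chromosome 3 for Smad3.

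The size of the difference changed with Nanog strength, and not in the same way for each factor. Among the weakest Nanog peaks, with 16 to 19 tags, Tgif1 overlapped 27.3% in clusters and 20.1% outside, a difference of 7.17 points (3.84 to 10.6). Among the strongest, with 60 or more tags, it overlapped 74.8% in clusters and 53.5% outside, a difference of 21.3 points (18.0 to 24.5). For Tgif2 the difference was 4.49 points (1.08 to 8.04) in the weakest class, with 28.3% in clusters and 23.8% outside. It was 19.7 points (16.3 to 22.9) in the strongest class, with 72.1% in clusters and 52.5% outside. For both paralogs the intervals of the weakest and strongest class do not overlap, so the difference was wider at strong Nanog peaks.

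Hdac1 showed no such widening in points. Its share was 35.1% in clusters and 24.1% outside in the weakest class, a difference of 10.98 points (7.38 to 14.7). In the strongest class it was 82.5% in clusters and 71.9% outside, a difference of 10.6 points (7.65 to 13.4). The largest difference for Hdac1, 16.3 points (12.6 to 20.1), was in the class of 20 to 25 tags. Smad3 lay mostly at strong Nanog peaks in both groups. With 60 or more tags, Smad3 overlapped 414 of 1210 clustered peaks (34.2%) and 441 of 2151 peaks outside (20.5%), a difference of 13.7 points (10.6 to 16.9). This class runs up to 1349 tags, so tags are not fully matched within it. With 20 classes of tags in place of 5, the odds ratio of Smad3 was 1.84 (1.59 to 2.13). In the weakest class Smad3 overlapped 3 of 824 clustered peaks and 11 of 2602 outside, a difference of -0.0587 points (-0.469 to 0.667), which was not distinguishable from 0. The class of 26 to 35 tags likewise showed no distinguishable Smad3 difference, with 1.62% in clusters and 0.998% outside (0.626 points, -0.187 to 1.76).

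**Figure D2:**
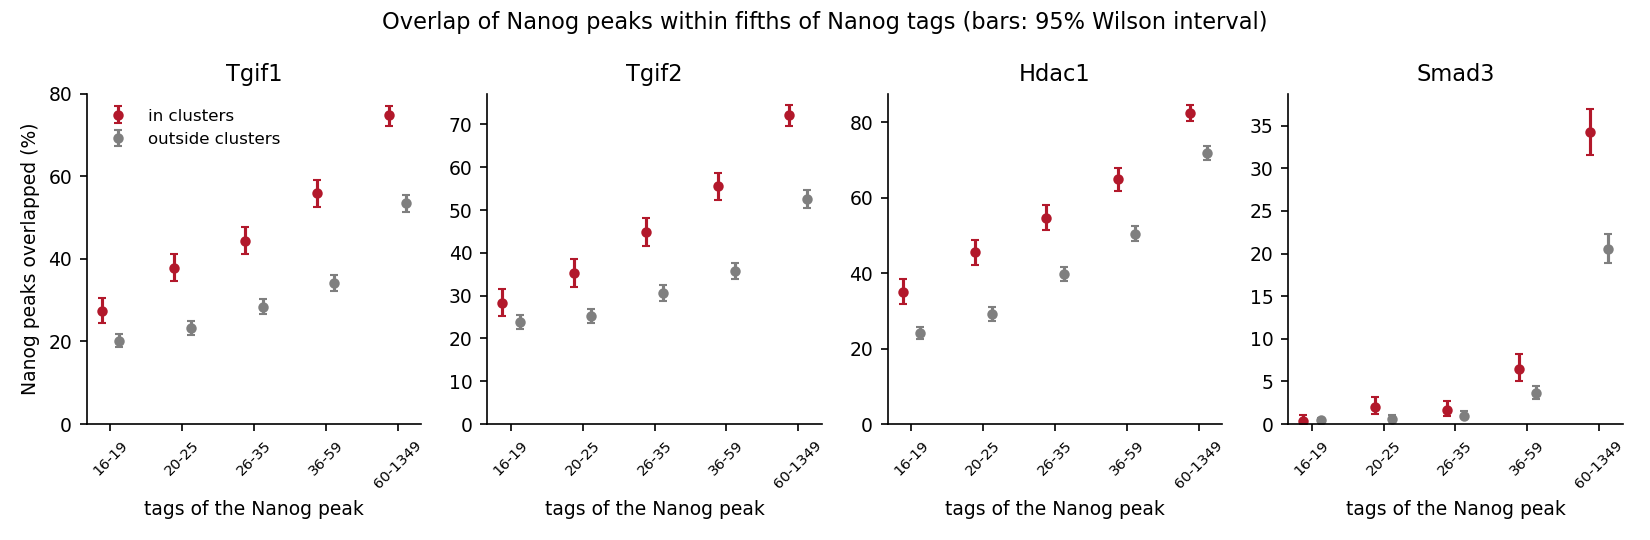
Percent of Nanog peaks overlapped by each factor (vertical axes) within 5 classes of Nanog tags (horizontal axes), in clusters and outside clusters; points are shares and bars 95% Wilson intervals. In the class of 60 or more tags, Tgif1 reached 74.8% in clusters and 53.5% outside, and Smad3 reached 34.2% in clusters and 20.5% outside.

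Members of a cluster share a locus, and some share a single peak of another factor, so the intervals above are too narrow. With only the strongest peak of each run kept, 1162 clusters against 10315 runs outside, the odds ratio was 2.47 (2.15 to 2.84) for Tgif1, 2.21 (1.93 to 2.53) for Tgif2, 1.87 (1.61 to 2.18) for Hdac1 and 2.25 (1.90 to 2.66) for Smad3. The kept peak was the strongest of 3 or more in clusters, but came from a single peak or a pair outside. Of the kept cluster peaks, 67.6% fell in the open class of 60 or more tags, so Nanog tags are not fully matched. A factor peak that spans several Nanog peaks is counted at each. Among the factor peaks at members, 197 of 2221 Tgif1, 212 of 2149 Tgif2, 309 of 2481 Hdac1 and 18 of 498 Smad3 peaks overlapped 2 or more members. After factor peaks at more than 1 Nanog peak were left out, which can remove factor peaks only where Nanog peaks are close together, the odds ratio of Hdac1 was 1.14 (1.06 to 1.23) and that of Tgif1 was 1.57 (1.46 to 1.68). When only the Hdac1 peaks in the upper part of that list by fold, from its median on, were used, the odds ratio was 1.19 (1.10 to 1.28).

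Clusters lay where the other lists were dense also away from Nanog. Within 50000 bp of a clustered Nanog peak there was a median of 4 peaks of the 4 other lists that overlapped no Nanog peak, against 2 around peaks outside. None lay within this distance for 15.6% of clustered peaks and for 37.9% of peaks outside. Classes of this number were combined with the tag classes, a choice made after seeing the data. The odds ratios were then 1.64 (1.52 to 1.77) for Tgif1, 1.45 (1.35 to 1.56) for Tgif2, 1.51 (1.40 to 1.63) for Hdac1 and 1.91 (1.65 to 2.21) for Smad3.

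The factors came together at clustered peaks more often than outside. All 4 overlapped 368 clustered peaks, or 7.84% (7.11 to 8.65), against 302 peaks outside, or 2.49% (2.22 to 2.78), with 3.98% over all Nanog peaks. The odds ratio was 2.69 (2.27 to 3.18) within tag classes and 4.40 (3.73 to 5.19) within classes of Nanog fold. None of the 4 overlapped 29.6% of clustered peaks and 47.5% of peaks outside, with 42.5% over all, and the odds ratio was 0.490 (0.454 to 0.529). The most frequent occupied state in clusters was Tgif1 with Tgif2 and Hdac1 but no Smad3, at 1313 peaks (28.0%), against 2206 (18.2%) outside.

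States with a single factor were not more frequent in clusters for Hdac1 or Tgif2. Each peak has a single state, so a larger share of joint states leaves less for the others. Hdac1 alone marked 10.4% of clustered peaks and 11.7% of peaks outside, with an odds ratio of 0.867 (0.778 to 0.966). Tgif2 alone marked 2.96% in clusters and 3.80% outside (0.805, 0.663 to 0.976). The odds ratio of Tgif1 alone lay on the other side of 1 from that of its paralog, with 3.03% in clusters and 2.34% outside (1.33, 1.08 to 1.64). Hdac1 with Smad3 and without either Tgif protein was at 33 clustered peaks (0.703%) and 104 peaks outside (0.857%), with an odds ratio of 0.643 (0.432 to 0.955). These states do not show a lack of excess without Tgif1. Where Tgif1 was absent, Hdac1 overlapped 33.3% of clustered peaks and 24.8% of peaks outside (odds ratio 1.55, 1.40 to 1.72). Tgif2 overlapped 17.1% and 12.2% of the same peaks (1.49, 1.31 to 1.69).

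Splitting Nanog peaks by one factor showed how much of the excess of another stayed within each part. Where Hdac1 was present, Tgif1 overlapped 71.8% of clustered peaks and 59.3% of peaks outside (odds ratio within tag classes 1.70, 1.54 to 1.88). Where Hdac1 was absent, the Tgif1 shares were 19.7% in clusters and 10.7% outside (2.02, 1.77 to 2.32). The Tgif1 excess was thus present on both sides of the split. Given Tgif1, however, Tgif2 overlapped 81.2% in clusters and 78.7% outside, and the odds ratio of 1.14 (1.002 to 1.30) was the lowest of the 24 such comparisons. The next lowest was that of Hdac1 given Tgif1, with 83.8% in clusters and 80.0% outside (1.18, 1.03 to 1.36). At peaks with Smad3, Tgif1 overlapped 83.7% of 508 clustered peaks and 66.0% of 580 peaks outside (2.62, 1.93 to 3.55). Tgif2 overlapped 79.9% and Hdac1 90.9% of the same clustered Smad3 sites, against 60.5% and 85.7% of those outside.

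Most clusters contained members with and without each of the more frequent factors. At least 1 member carried Hdac1 in 1064 of 1162 clusters (91.6%), Tgif1 in 1004 (86.4%), Tgif2 in 986 (84.9%) and Smad3 in 379 (32.6%). Every member carried Hdac1 in 207 clusters (17.8%), Tgif1 in 126 (10.8%), Tgif2 in 123 (10.6%) and Smad3 in 3. No member carried any of the 4 in 33 clusters (2.84%). A member with all 4 factors was found in 295 clusters (25.4%), and 58 had 2 or more such members. Mixed clusters were therefore the usual form, with 878 (75.6%) mixed for Tgif1 and 857 (73.8%) for Hdac1. With Tgif1 at 50.3% and Hdac1 at 58.7% of members, many clusters would be mixed from these shares alone. No expected number was computed, so the counts of clusters are given as a description.

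The strongest Nanog peak of a cluster carried the other factors most often, but the weaker members also exceeded peaks outside. Tgif1 overlapped 66.9% (64.1 to 69.5) of the 1162 leading peaks, against 46.3% of peaks outside weighted to the same tag classes. It overlapped 44.9% (43.2 to 46.5) of the other 3529 members, against 29.4% of peaks outside weighted to their classes. Smad3 overlapped 26.7% (24.2 to 29.3) of leading peaks, against 14.7% outside, and 5.61% (4.90 to 6.42) of the other members, against 3.65% outside. For all 4 factors together, the odds ratio against peaks outside was 3.17 (2.61 to 3.84) for leading peaks and 2.06 (1.63 to 2.59) for other members. For Tgif2 it was 2.19 (1.91 to 2.51) for leading peaks and 1.79 (1.66 to 1.94) for other members. That of Hdac1 did not differ, at 1.83 (1.57 to 2.13) for leading peaks and 1.83 (1.69 to 1.98) for other members. The leading peaks were chosen by Nanog tags, and the highest class runs from 60 to 1349 tags, so tags are not fully matched within it.

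Neighbouring members resembled each other in occupancy. After a member with Tgif1, the next member carried Tgif1 in 58.4% of cases, against 45.4% after a member without it (odds ratio within tag classes of the second peak 1.88, 1.63 to 2.17). Leaving out the 209 neighbours that lay under the same Tgif1 peak gave 1.48 (1.28 to 1.72). For Smad3 the shares were 20.7% after a member with Smad3 and 10.2% after one without, with an odds ratio of 2.48 (1.80 to 3.41), or 1.89 (1.34 to 2.67) without the 18 neighbours under the same peak. Even so, 1534 of the 3529 neighbour pairs differed in Tgif1 and 1462 differed in Hdac1.

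Occupancy was higher in larger runs, and for Tgif1, Tgif2 and Hdac1 it already differed between singles and pairs. Tgif1 overlapped 27.9% of single Nanog peaks, 38.4% of peaks in pairs, 45.4% in clusters of 3, 51.3% in clusters of 4, 53.1% in clusters of 5 and 56.1% (53.2 to 59.0) in clusters of 6 or more. Singles weighted to the tag classes of the largest clusters reached only 30.8%. Tgif2 overlapped 30.6% (29.7 to 31.6) of singles and 38.1% (36.6 to 39.7) of peaks in pairs. For Hdac1 the shares were 38.5% (37.5 to 39.5) of singles and 50.0% (48.4 to 51.6) in pairs. Smad3 overlapped 4.44% of singles, 5.56% in pairs, 9.04% (7.83 to 10.4) in clusters of 3 and 12.6% (10.8 to 14.6) in clusters of 6 or more. The interval for pairs, 4.86 to 6.35%, lay below that for clusters of 3. Differences between clusters of 4, 5 and 6 or more lay within overlapping intervals for each of these factors. Median tags per peak were 28 for singles, 31 in clusters of 3 and 33 in clusters of 6 or more.

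Over all 16833 Nanog peaks, overlap was also lower the farther away the nearest Nanog peak was. Tgif1 overlapped 49.0% (47.5 to 50.4) of Nanog peaks with a neighbour within 2500 bp, 39.9% (37.9 to 41.9) with the nearest at 5 to 12.5 kb, and 34.3% (32.4 to 36.3) at 12.5 to 25 kb. The share was 26.8% (24.8 to 28.8) at 50000 to 100000 bp and 19.02% (17.5 to 20.7) beyond 100000 bp. Weighting each distance to the same tag classes gave 46.2% within 2500 bp and 19.7% beyond 100000 bp. Hdac1 declined from 60.1% within 2500 bp to 30.8% beyond 100000 bp, and Tgif2 from 48.6% to 22.4%. Smad3 overlapped 10.3% (9.42 to 11.2) within 2500 bp and 5.62% (4.76 to 6.63) at 5 to 12.5 kb, and its intervals overlapped from there on up to 50000 bp. For the Tgif proteins and Hdac1 the shares thus declined on both sides of the joining gap of 12.5 kb.

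**Figure D3:**
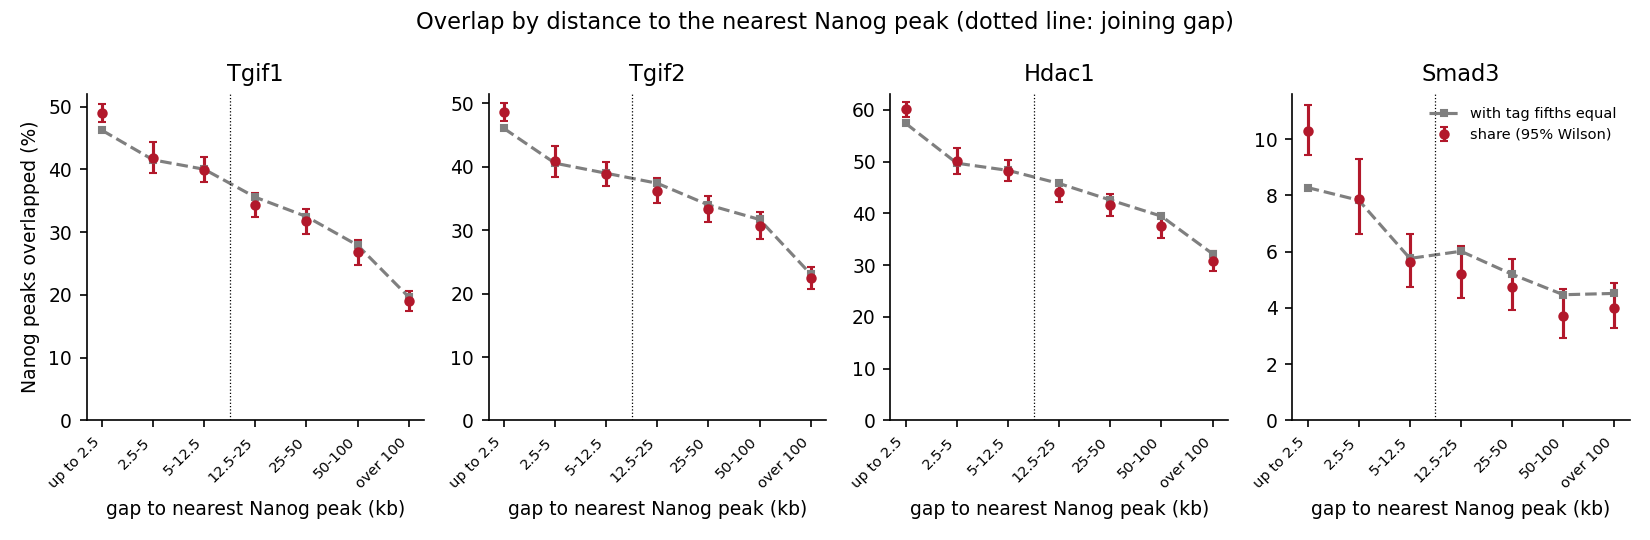
Percent of Nanog peaks overlapped (vertical axes) by gap to the nearest Nanog peak in kb (horizontal axes); red points are shares with 95% Wilson intervals, grey squares the shares with equal weights of tag classes, and the dotted line is the joining gap. Tgif1 goes from 49.0% at the shortest gaps to 19.02% at the longest, with a decline on both sides of the dotted line.

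Where another factor was present, its own peak held more tags at clustered than at other Nanog peaks. Medians were taken per Nanog peak, so a factor peak over several Nanog peaks entered more than once. In clusters, 309 Hdac1 peaks entered for 633 members and 197 Tgif1 peaks for 404. How far this raised the medians of tags and width was not tested. The overlapping Tgif1 peak had a median of 66 tags (25th to 75th percentile 46 to 101) in clusters and 54 (40 to 81) outside. Hdac1 peaks had a median of 62 tags in clusters and 50 outside, Tgif2 peaks 71 in clusters and 59 outside, and Smad3 peaks 33 in clusters and 24 outside. Among Nanog peaks with 60 or more tags the order held, with 78 in clusters and 58 outside for both Tgif1 and Hdac1. The factor peaks in clusters were also wider, with medians of 1188 bp in clusters and 984 bp outside for Hdac1. Whether the difference in tags follows that in width was not tested. Median distances between the Nanog summit and the nearest summit of the other factor were 64 bp in clusters and 59 bp outside for Tgif1. For Tgif2 they were 75 bp in clusters and 68 bp outside, and for Hdac1 58 bp in clusters and 49 bp outside. Those of Smad3 were 33.5 bp in clusters and 36.5 bp outside. Smad3 summits were thus the closest to Nanog summits in both groups. Distances were taken only at overlapping peaks, and Smad3 peaks were narrower, with medians in clusters of 748.5 bp against 1000.5 bp for Tgif1. Smad3 also lay mostly at strong Nanog peaks, where distances were shorter for each factor. At clustered Nanog peaks with 60 or more tags, median distances were 31 bp for Smad3, 46 for Hdac1, 53 for Tgif1 and 59 for Tgif2.

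Seen from the other lists, and without matching for Nanog tags, clusters held the largest share of the Smad3 list. Clustered Nanog peaks overlapped 498 of 1199 Smad3 peaks (41.5%), compared with 15.1% of Hdac1, 13.6% of Tgif1 and 11.3% of Tgif2 peaks. Of the factor peaks that overlapped any Nanog peak, clusters held 45.9% for Smad3, 37.2% for Tgif1, 35.1% for Tgif2 and 33.3% for Hdac1. Clustered peaks were 27.9% of Nanog peaks. Among those with 60 or more tags, where most Smad3 overlap lay, 1210 were in clusters and 2151 outside. Within tag classes the odds ratio of Smad3, 1.98, was not above that of Tgif1, 2.13. Within classes of Nanog fold the order was reversed, at 3.21 (2.81 to 3.66) for Smad3 and 2.23 (2.08 to 2.39) for Tgif1. The ranking thus depended on the classes used.

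The space between the Nanog peaks of a cluster also held peaks of the Tgif proteins and Hdac1. Summits of Tgif1 lay in these gaps at 32.8 per Mb (29.8 to 36.0, exact Poisson interval), from 440 summits in 13.4 Mb. The flanks of 12.5 kb outside the clusters held 570 summits in 28.5 Mb (18.4 to 21.7 per Mb), which gave a ratio of gaps over flanks of 1.64 (1.44 to 1.86). The ratio was 1.57 (1.40 to 1.76) for Tgif2 and 1.44 (1.26 to 1.65) for Hdac1. Part of these summits belong to peaks that reach into a Nanog peak. For factor peaks at no Nanog peak, the density of Tgif1 was 25.9 per Mb in gaps, 18.9 per Mb in cluster flanks and 9.65 per Mb in flanks of single Nanog peaks. Gaps then exceeded cluster flanks 1.37 times (1.19 to 1.57) for Tgif1, 1.28 times (1.13 to 1.45) for Tgif2 and 1.18 times (1.02 to 1.37) for Hdac1. With flanks of 6.25 kb, the ratio for such peaks was 1.29 (1.10 to 1.52) for Tgif1, while the intervals for Tgif2 (0.961 to 1.27) and Hdac1 (0.919 to 1.29) included 1. Cluster flanks exceeded the flanks of single peaks 1.96 times (1.78 to 2.16) for Tgif1, 1.93 times (1.77 to 2.11) for Tgif2 and 2.05 times (1.86 to 2.27) for Hdac1. Smad3 had 7 summits in 13.4 Mb of gaps and 9 in 28.5 Mb of cluster flanks, too few to tell the densities apart (ratio 1.65, 0.523 to 4.98).

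**Figure D4:**
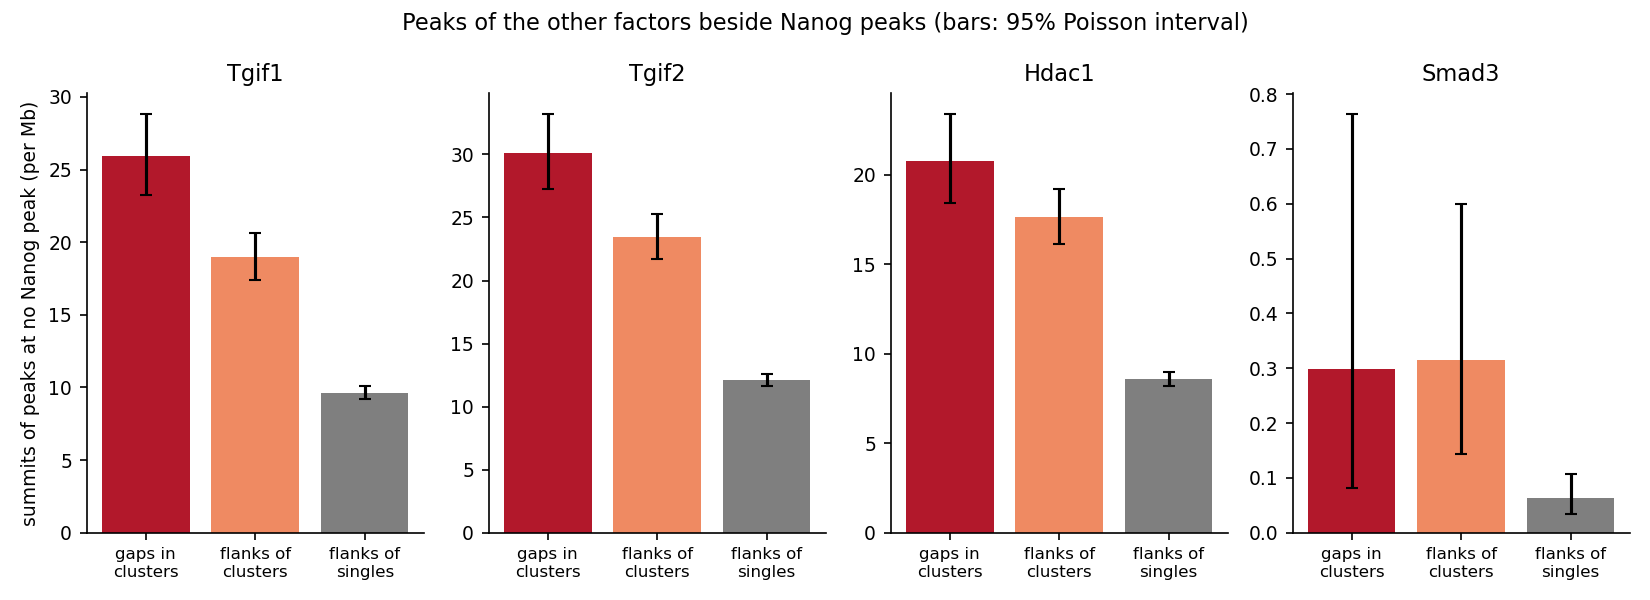
Summits per Mb (vertical axes) of peaks that overlap no Nanog peak, in gaps between clustered Nanog peaks, in the 12.5 kb beside clusters and in the 12.5 kb beside single Nanog peaks; bars are densities with 95% exact Poisson intervals. Tgif1 had 25.9 per Mb in gaps, 18.9 in cluster flanks and 9.65 in flanks of single peaks.

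The cluster with the most Nanog tags and the most peaks was chr5:120106617-120171310, with 15 peaks and 1346 tags over 64693 bp. Its strongest members were neighbours: the adjoining peaks at chr5:120129362-120130481 and chr5:120130705-120132437 held 271 and 243 tags. The first of them carried all 4 other factors, the second all but Smad3. The overlapping peaks held the same tags at both, 316 for Tgif1 and 237 for Tgif2. Yet 8 of the 15 peaks carried none of the 4, the highest such number among all clusters. One of these bare peaks, chr5:120162517-120163690, had 126 Nanog tags, more than the peak with all 4 factors at chr5:120159637-120160701, which had 94. Next by tags was chr1:13061230-13075874, with 7 peaks and 1304 tags, of which 703 lay in the single peak chr1:13074627-13075874. Only that peak and chr1:13064353-13065258, with 317 tags, carried all 4 factors, and 3 of the 7 carried none.

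In contrast, the next cluster, chr3:34655236-34660690, was compact and occupied throughout. Its 4 peaks held 1302 tags within 5454 bp, in peaks of 468, 455, 128 and 251 tags. Smad3, Tgif1 and Hdac1 were at each of them, and Tgif2 was at 3. Overlapping Tgif1 peaks held 118 tags at both the first and the second, and Hdac1 peaks 151 at both the third and the fourth. A single factor peak may thus be counted at neighbouring members. The Smad3 peak over the second Nanog peak held 121 tags, against a list median of 26. The remaining clusters of the leading 10 had tag sums from 999 to 1089. They were chr5:118884474-118933926, chr1:88191240-88208629, chr10:62346263-62363466, chr17:35622504-35647022, chr13:44800254-44829733, chr8:91514841-91550751 and chr12:87837921-87849904. Of these, chr1:88191240-88208629 carried Tgif1, Tgif2 and Hdac1 at each of its 6 peaks and chr12:87837921-87849904 at each of its 5. The chr17 cluster held 586 of its 1051 tags in 1 of 11 peaks, which was its only peak with all 4 factors, while 4 peaks carried none. Each of the 10 had at least 1 member with Smad3, and 9 of the 10 had 2 or more. The 10 were chosen for their Nanog tags, with which Smad3 overlap increases, so they are not comparable with clusters at large.

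Peaks with all 4 factors were most numerous in chr7:3192915-3228395 and chr6:122712359-122720786, with 4 each. The chr7 cluster had Smad3 at 6 of 7 Nanog peaks, and at 2 of them Smad3 came without Tgif1, Tgif2 or Hdac1. In the chr6 cluster each of 4 peaks carried all 4 factors, with a tag sum of 382 and 31 tags in its weakest peak. Its 2 central peaks were 2 bp apart, and the overlapping peaks held the same tags at both, 159 for Tgif1, 125 for Tgif2 and 205 for Hdac1. Several clusters had 3 such peaks, and those of them with the most Nanog tags were chr3:34655236-34660690, chr13:44800254-44829733 and chr12:87837921-87849904.

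At the other end, chr14:122787599-122833848 and chr1:34093269-34134574 had the most peaks without any other factor after the chr5 cluster, 7 and 6 of 10. In the chr14 cluster the strongest peak, with 159 tags, carried all 4 factors, but the next, chr14:122832933-122833848 with 117 tags and a fold enrichment of 170, carried none. In the chr1 cluster, 309 of 554 tags lay in 1 peak with all 4 factors. The other clusters with the most Nanog peaks were chr1:84829260-84887224, chr4:123300656-123347234 and chr15:10591644-10652792 with 14 peaks each, and chr16:22391168-22442692, which had the most Nanog tags among those with 13. Smad3 was at none of the 14 peaks of chr1:84829260-84887224, although Hdac1 was at 10 and Tgif2 at 9.

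**Figure D5:**
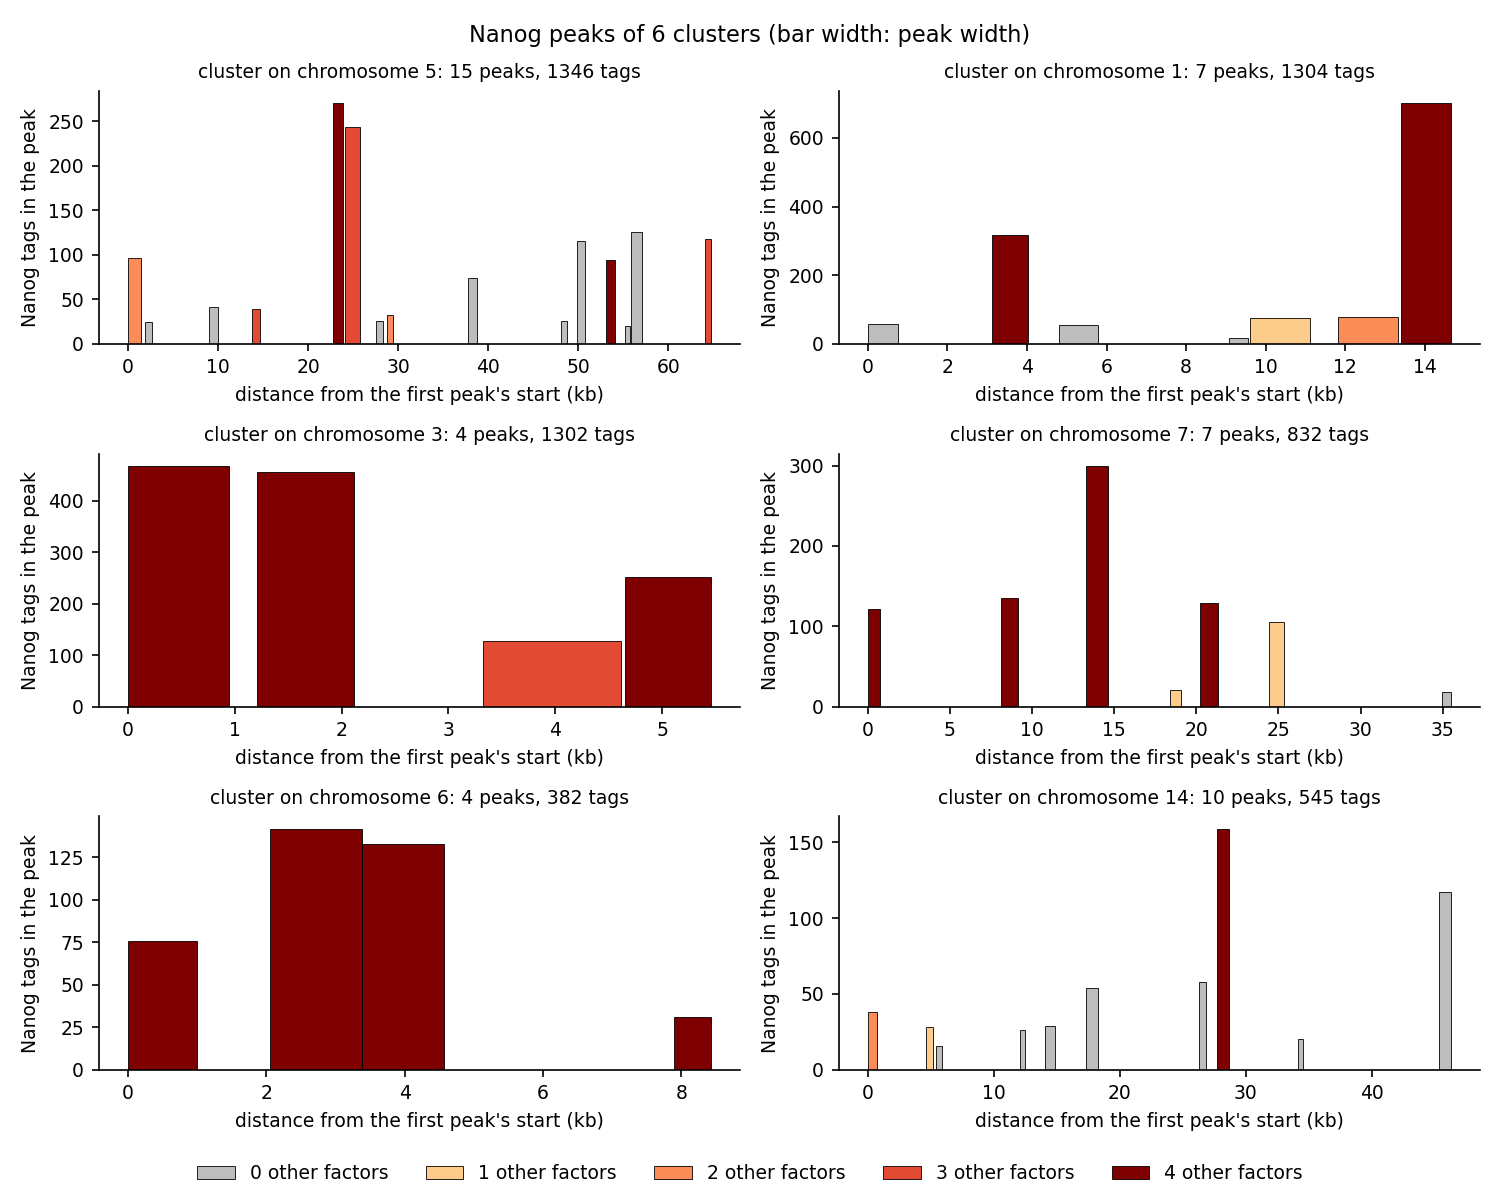
Nanog tags per peak (vertical axes) against distance from the start of the first peak in kb (horizontal axes) for 6 clusters; bar width is peak width and colour the number of other factors, from 0 to 4. The chromosome 3 cluster holds 4 peaks with 3 or 4 other factors within 5454 bp, while the chromosome 5 cluster has 8 of 15 peaks with none.

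The joining gap is a limit set by the rule. Just inside it lay triples with longest gaps of 12466, 12453 and 12415 bp and tag sums of 129, 190 and 292. Just outside lay would-be triples with gaps of 12529, 12565 and 12571 bp and tag sums of 97, 92 and 158. Tgif1 was at 0, 1 and 1 peaks of those inside and at 1, 0 and 1 peaks of those outside, and Smad3 was at none of the 6.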

How the data were processed

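ChIP-seq peak lists for Nanog, Tgif1, Tgif2, Hdac1 and Smad3, 1 library each, were used as deposited. Per the submitters' processing notes, reads were handled with BWA 0.5.9-r16 and MACS on build mm9; settings, the control library and the peak threshold are not given in the sources used here. The lists have no header. The deposited fold enrichment (a ratio per peak), the deposited tag count per peak and the summit position were identified from the values. Coordinates are printed as deposited and may be off by 1 bp.

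Nanog peaks were joined and overlaps counted in Python 3.11.15 with NumPy 2.4.6, pandas 2.3.3 and SciPy 1.17.1. Shares have Wilson, differences Newcombe and Mantel-Haenszel odds ratios Robins-Breslow-Greenland 95% intervals, and densities exact Poisson and their ratios exact conditional binomial ones, with no p-values because peaks are not replicates. Counts and odds ratios were checked against bedtools 2.31.1 and statsmodels 0.14.6 (0 of 10 differed) and tested on simulated data. The members, comparisons and rules were chosen with earlier results of these data known. Named clusters were the 10 with the most tags, the 5 with the most peaks, the 5 with the most peaks carrying all 4 factors and the 3 with the most carrying none. Alternatives were other gaps, sizes, overlaps, thresholds and strata.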

Additional observations from a re-analysis of the deposited data

Results flagged for a closer look

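The X chromosome was outside the chromosomes compared. It held 295 Nanog peaks, of which 45 lay in 11 clusters by the same rule. That is 15.3% of its Nanog peaks, against 27.9% on chromosomes 1 to 19. The rule joins peaks by distance, so this share depends on how densely Nanog peaks lie. Each of chromosomes 1 to 19 held more Nanog peaks than X. Chromosome 16 had the fewest of them, 477, with 18.0% in clusters. Chromosome lengths were not used, so these numbers do not give the density of peaks. Whether X differs beyond the number or density of its peaks was not tested. The clusters on X were not compared with the other factors.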

How the results depend on the processing

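The 5 odds ratios (each factor, and all 4 together) were recomputed under 19 alternatives, of which the merging of close Nanog peaks, peaks at only 1 Nanog peak, width with tags and nearby peaks were chosen after seeing the data. All 95 values stayed above 1 with intervals that excluded 1. Ranges were 1.57 to 2.47 for Tgif1, 1.33 to 2.21 for Tgif2, 1.14 to 2.11 for Hdac1, 1.64 to 3.21 for Smad3 and 1.89 to 4.40 for all 4. Of these, 4 moved by more than 1.5 times: Hdac1 as given in the report, and Smad3 (3.21) and all 4 (4.40) when classes of Nanog fold replaced tags; the cause was not tested. The number of clusters depended on the rule, with 707 at a joining gap of 5000 bp and 247 with Nanog peaks at or above the median fold, where fewer peaks remain to join. The share of Nanog tags in clusters was 19.4% at 5000 bp, 47.0% at 25000 bp, 13.3% at or above the median fold, 32.1% by summits, 32.1% without chromosome 1 and 25.03% after merging. The ratio of Smad3 density in gaps over flanks was 0.943 (0.212 to 3.38) for peaks at no Nanog peak, from 4 and 9 summits. No paired analysis was possible because each factor had 1 library. The density ratios of Tgif1, Tgif2 and Hdac1 stayed above 1 under each of the 3 alternatives run for them, while each Smad3 interval included 1. These alternatives did not combine flanks of 6.25 kb with peaks at no Nanog peak. In that combination the intervals of Tgif2 (0.961 to 1.27) and Hdac1 (0.919 to 1.29) included 1.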

Other observations

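In the 638 clusters of 3 peaks, the strongest peak was the middle one in 240 (37.6%), the first in 218 (34.2%) and the last in 180 (28.2%). The share of Nanog peaks that lay in clusters differed between chromosomes, from 18.0% of 477 peaks on chromosome 16 to 35.0% of 1234 peaks on chromosome 11.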
